A study of Drosophila melanogaster with 3 samples.

Results

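Seminal fluid proteins are made by the accessory gland and the ejaculatory duct and bulb of the Drosophila melanogaster male and pass to the female with the sperm at mating. They are known for effects on sperm storage, egg laying, remating and the mating plug, and the peptides and proteases among them act as a chain in the mated female. The organs that make them lie in the abdomen, while the design text of this study places the RNA in male heads.

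The genes described here are 10 listed genes of the accessory gland and ejaculatory bulb, matched to array probes by their CG gene number. The match found 7 probes of 6 genes (Acp36DE, Acp53Ea, Acp53C14a, Acp32CD, Mst57Da and Acp26Aa), out of 9276 named genes among the 11733 tested probes, some of which have no gene name. No probe carried the CG number of the other 4 genes, namely the trypsin inhibitor gene Acp62F, the protease gene Sems and the mating plug genes PebII and Ebp. One further probe is named in the array layout only by its clone, GH06048, which RefSeq lists as a synonym of Ebp. It lies outside the rule, so its values are given apart and enter no count. All 7 probes passed the filter on dim spots, which left 11733 of 11744 probes and so says little about detection.

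Each of 3 spotted 2-colour cDNA arrays held RNA of wild-type w1118 males in channel 1 (Cy3) and RNA of males homozygous for kep1 (kep1-/kep1-) in channel 2 (Cy5). Kep1 binds RNA and belongs to the STAR proteins, which act in splicing and other RNA processing. Flies were 3 to 4 days old and the design text gives 3 independent RNA samples. The kep1 allele, how many flies were pooled and the strain background of the mutant are not given in the sources used here. No array had the dyes swapped, so genotype, strain and a dye effect of a probe cannot be told apart. The source labels name male RNA without a tissue, and the array numbers below follow the order of the records.

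Across the arrays, median probe intensities were 226.9 to 306.8 in the 6 channels, and the 95th percentiles of the blank spots lay between 112.4 and 446.0. The kep1 probe itself (listed as qkr58E-3) had log2 ratios of -1.59, -1.35 and -2.13, with a mean of -1.69 ± 0.40 (SD, n = 3, limma adjusted p = 0.0726). Markers of the head were present, since all 14 photoreceptor genes and 7 of 8 neuron genes exceeded that blank level in each channel. Their median log2 ratios were 0.07 and 0.06, with single genes from -0.42 to 0.81 and from -0.34 to 0.25. The highest was Rh4, at 0.81 ± 0.12 (SD, n = 3, limma adjusted p = 0.0625). At an unadjusted limma p under 0.05, 2 photoreceptor genes had a higher and 1 a lower ratio, and none passed the threshold. Over all tested probes, 8 were higher and 9 lower in the mutant at a limma adjusted p under 0.05, which is 0.145% of 11733 (0.0767% in the lower direction).

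The bright seminal fluid probes had lower signal in the mutant channel on every array, but none of the 7 probes passed the threshold over all tested probes. Their mean log2 ratios ran from -1.82 for Acp36DE to -0.09 for Acp26Aa, with 5 of 7 probes at -1 or lower, against 0.903% of all tested probes. An unadjusted limma p under 0.05 in the lower direction was reached by 6 of 7, against 9.25% of tested probes. Below 0 on all 3 arrays were 6 of 7, against 20.5%. Both counts hold Acp36DE with 2 probes, and both hold the dim Acp32CD. By gene each count was 5 of 6, against 927 and 1997 of all 9276 tested genes. The median over the 6 genes, each by its brightest probe, was -1.21, while that of all tested genes was -0.01. These genes were chosen with earlier results of the same arrays known, so the counts describe them and do not test them as a group. In RNA of mixed cells, a smaller share of a cell type in the sample and less RNA per cell cannot be told apart. How much abdominal tissue each RNA sample held was not measured.

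**Figure D1:**
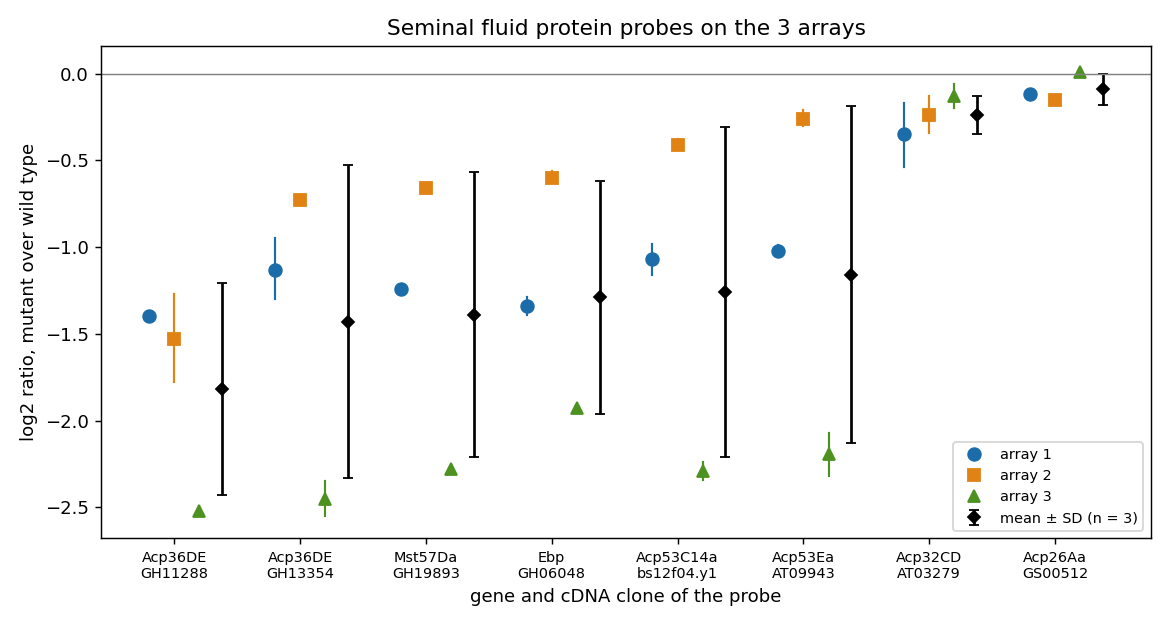
Log2 ratio of mutant over wild type (y axis) for each probe (x axis, gene and cDNA clone), with 1 marker per array, a thin line joining its 2 spots, and a black diamond with bars for the mean ± SD of the 3 arrays. The points of array 3 lie lowest for the 6 bright probes (both of Acp36DE, and those of Mst57Da, Ebp, Acp53C14a and Acp53Ea), and Acp32CD and Acp26Aa lie near 0.

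Acp36DE encodes a glycoprotein that mated females need in order to store sperm, and it was the gene with the lowest ratio. Its probe of clone GH11288 gave foreground intensities of 2743.8, 3268.4 and 3340.0 in wild type on arrays 1, 2 and 3. The mutant values were 1230.7, 946.9 and 597.2. All 3 mutant values lay below all 3 wild-type values, and the mutant signal was 44.9%, 29.0% and 17.9% of that of wild type on the same array. The log2 ratios after normalization were -1.40, -1.53 and -2.52, a mean of -1.82 ± 0.61 (SD, n = 3), or 3.52-fold lower. The 95% interval of this mean in limma ran from -2.47 to -1.16, with an unadjusted p of 0.00126 and an adjusted p of 0.0953. No other of the 7 probes had an adjusted p under 0.1, a level that 1.36% of tested probes reached in the lower direction. Only 6 tested probes had a lower mean ratio.

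The second Acp36DE probe, of clone GH13354, had intensities of 754.7, 13317.7 and 8478.6 for wild type and 355.2, 6922.0 and 1550.6 for the mutant. Its signal was far dimmer on array 1 than on the other arrays in both channels, so the intensities of the genotypes overlap between arrays, but the mutant was the dimmer within each array. The log2 ratios of -1.13, -0.73 and -2.45 averaged -1.43 ± 0.90 (SD, n = 3, limma adjusted p = 0.183). The 2 probes of the gene thus had the same sign on every array, and differed most on array 2.

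Mst57Da encodes a small secreted peptide of the accessory gland. Its intensities were 1893.6, 1332.1 and 2730.8 for wild type against 970.7, 695.8 and 576.8 for the mutant. The values of the genotypes did not overlap. The log2 ratios were -1.24, -0.66 and -2.28, with a mean of -1.39 ± 0.82 (SD, n = 3), or 2.63-fold lower (limma adjusted p = 0.170, 95% interval -2.27 to -0.52). On array 3 the mutant signal was 21.1% of that of wild type, against 51.3% and 52.2% on arrays 1 and 2.

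Acp53Ea and Acp53C14a belong to a family of accessory gland peptides whose genes lie close together, with 1 protein-coding gene, Acp53C14b, between them in the RefSeq gene order. The Acp53Ea probe gave 2284.7, 4340.2 and 3730.3 for wild type and 1321.8, 3111.5 and 833.2 for the mutant. The genotypes overlapped between arrays, since the mutant on array 2 was brighter than wild type on array 1, and the mutant was dimmer within each array. Its log2 ratios of -1.02, -0.26 and -2.19 averaged -1.16 ± 0.97 (SD, n = 3, limma adjusted p = 0.281).

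The Acp53C14a probe gave 2326.8, 4743.0 and 4191.7 for wild type and 1303.9, 3058.3 and 867.6 for the mutant. The overlap between arrays was of the same kind as for Acp53Ea. The log2 ratios of -1.07, -0.41 and -2.29 averaged -1.26 ± 0.95 (SD, n = 3, limma adjusted p = 0.242). Whether the cDNA probe of either Acp53 gene also binds the transcript of the other was not tested, and the counts above hold both probes.

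The other measured members were dim. Acp26Aa encodes ovulin, which stimulates ovulation in the mated female. Its intensities were 269.9, 139.0 and 124.4 for wild type and 210.8, 85.1 and 120.1 for the mutant, and the mutant channel lay under the blank level (the 95th percentile of blank spots) on all arrays, and wild type on 2 of 3. The log2 ratios of -0.12, -0.15 and 0.01 (mean -0.09 ± 0.09, SD, n = 3, limma adjusted p = 0.577) therefore say little about the level of ovulin RNA, and no fold is given.

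Acp32CD, which encodes a secreted accessory gland protein, had intensities of 396.8, 373.4 and 165.5 for wild type and 283.7, 250.1 and 114.6 for the mutant. The wild-type channel exceeded the blank level on 2 arrays and the mutant channel on 1. Its log2 ratios of -0.35, -0.24 and -0.13 averaged -0.24 ± 0.11 (SD, n = 3, limma adjusted p = 0.211). The mean was -0.41 without background correction, -0.43 from the deposited log2 values and -0.51 with plain subtraction, so its size depends on how the background was treated.

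**Figure D2:**
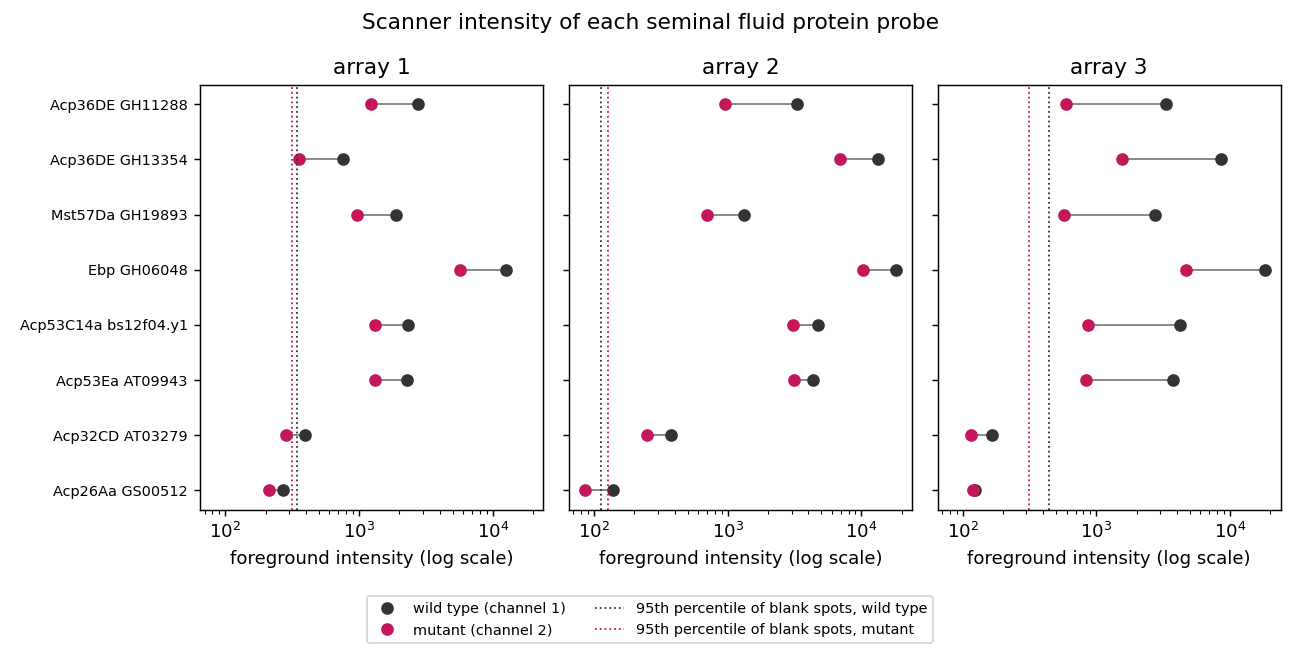
Foreground intensity (x axis, log scale) of each probe (y axis) in the wild-type and mutant channels of each array, with dotted lines at the 95th percentile of the blank spots of the same channel. The mutant point lies left of the wild-type point for each probe, with almost no gap for Acp26Aa on array 3 (124.4 against 120.1).

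Of the 2 ejaculatory bulb genes among the 10, PebII had no probe here, and clone GH06048 is tied by RefSeq to Ebp, a main protein of the posterior mating plug and a direct neighbour of PebII (EbpII in the table) in the gene order. This probe was very bright, at 12578.8, 18020.3 and 18210.9 for wild type and 5724.1, 10268.9 and 4680.9 for the mutant. The genotypes did not overlap. Its log2 ratios of -1.34, -0.60 and -1.93 averaged -1.29 ± 0.67 (SD, n = 3), or 2.44-fold lower (limma adjusted p = 0.144, 95% interval -2.01 to -0.57). The value lay within the range of the bright accessory gland probes.

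The size of the difference depended on the array. For Mst57Da, both Acp53 genes and Acp36DE clone GH13354 the ratio was nearest to 0 on array 2 and lowest on array 3, and the arrays spanned 1.62 to 1.93 on the log2 scale. Acp36DE clone GH11288 was also lowest on array 3, with a span of 1.11, but nearest to 0 on array 1. The 2 spots of a probe on the same array differed by at most 0.25 for the Acp53 genes and Mst57Da and by at most 0.51 for Acp36DE. The SD of the ratios over all tested probes was 0.29, 0.30 and 0.31 on arrays 1, 2 and 3. The blank level was lower on array 2 (112.4 in wild type, 128.2 in the mutant) than on array 1 (344.9 and 313.6) or 3 (446 and 311.6). Spots without a deposited log2 value numbered 0, 2869 and 32 on arrays 1, 2 and 3. Whether these differences between arrays bear on the ratios was not tested. Acp53Ea ranked below all but 0.119% of tested probes on array 3, all but 1.22% on array 1 and all but 14.0% on array 2. Without array 3 its mean ratio was -0.64, that of Acp53C14a -0.74 and that of Acp36DE clone GH13354 -0.93.

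Of a wider list of 48 seminal genes outside the 10, 22 had a probe with their CG number. None passed over all tested probes in limma. At an unadjusted p under 0.05, 11 had a lower and 2 a higher ratio, against 927 and 529 of all 9276 tested genes. Below 0 on all 3 arrays were 17 (77.3%), against 21.5% of all tested genes. Their median log2 ratio was -0.22. Split by brightness after the values were seen, the median was -0.79 over the 13 genes whose mean intensity exceeded 276.1, the mean blank level, and -0.04 over the 9 dimmer genes. Of the 17 genes below 0 on all 3 arrays, 11 were among the 13 and 6 among the 9. The offset of 50 added to both channels draws the ratios of dim probes towards 0. The dimmer genes thus give little measure of a difference.

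The serpin genes Spn38F and Spn28F, which encode protease inhibitors of the seminal fluid, had the lowest ratios among the 22 genes matched by CG number. Spn38F stood at -1.19, -0.85 and -2.40 (mean -1.48 ± 0.81, SD, n = 3, limma adjusted p = 0.155). Spn28F stood at -1.09, -0.45 and -2.50 (mean -1.34 ± 1.05, limma adjusted p = 0.249). Both had the array order of Mst57Da, lowest on array 3 and nearest to 0 on array 2.

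Among odorant-binding proteins that are found in seminal fluid, Obp51a stood at -0.97, -0.84 and -2.05 (mean -1.29 ± 0.66, SD, n = 3, limma adjusted p = 0.144). Obp56g, an odorant-binding protein of the ejaculatory bulb, stood at -1.29, -0.70 and -1.42 on its brighter probe (mean -1.14 ± 0.39, limma adjusted p = 0.0960), while a dimmer probe of the same clone gave -0.32 ± 0.11. Clone AT24650, which RefSeq ties to the seminal gene BG642312 and which was looked up by its clone name after the files were read, stood at -1.08, -1.44 and -2.14 (mean -1.55 ± 0.54, limma adjusted p = 0.0960).

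Not all bright seminal genes had a negative ratio. EbpIII, a further ejaculatory bulb protein gene that other tissues also express, stood at 0.53, 0.63 and 0.07 (mean 0.41 ± 0.30, SD, n = 3, limma adjusted p = 0.249), with 2033.3, 3871.7 and 1704.9 for wild type and 3280.0, 5173.8 and 1737.5 for the mutant. Obp8a stood at 0.28, 0.68 and 0.18 (mean 0.38 ± 0.26, limma adjusted p = 0.245). Both were above 0 on all 3 arrays, and both were named after their values were seen. The esterase gene Est-6, known from the ejaculatory duct and also from the antenna, had a smaller difference that its 2 probes shared, at -0.64 ± 0.38 and -0.62 ± 0.41.

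Genes for the proteins that bind sex peptide to sperm or act in that chain, and the protease gene Semp1, were mostly dim. The next 5 exceeded the blank level in at most 2 of 6 channels. Semp1, a protease that Sems activates, gave -0.04 ± 0.04, intr -0.04 ± 0.02, CG17575 -0.08 ± 0.04, CG9997 0.03 ± 0.16 and lectin-46Cb -0.09 ± 0.06 (SD, n = 3 each). The lectin gene lectin-46Ca also exceeded the blank level in only 2 of 6 channels, both on array 2, at 1052.2 in wild type and 502.4 in the mutant. It stood at -0.55 ± 0.23 (limma adjusted p = 0.128), a mean that includes arrays 1 and 3, where both channels lay under the blank level. These genes and lectin-46Ca were named after their values were seen.

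**Figure D3:**
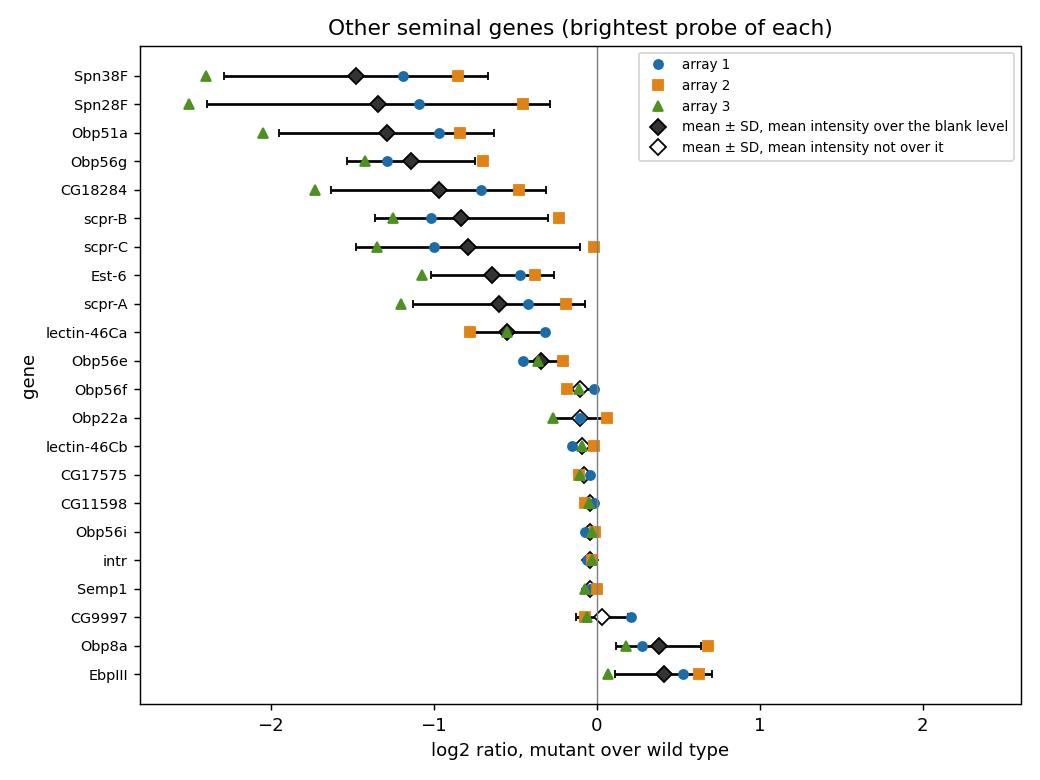
Log2 ratio of mutant over wild type (x axis) for the 22 other seminal genes (y axis), with a coloured marker per array and a diamond with bars for the mean ± SD, filled where the mean intensity exceeded the mean blank level of 276.1. The filled diamonds run from -1.48 (Spn38F) to 0.41 (EbpIII), and the open ones lie between -0.10 and 0.03.

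Marker lists of other abdominal tissues had median ratios below 0, though few of their genes passed the threshold. Of 22 testis genes, 1 (exu) passed in limma and fell, and the median was -0.39. At an unadjusted p under 0.05, 12 testis genes had a lower and 0 a higher ratio, 17 and 0 of the gut enzymes did, and 7 and 0 of the aminopeptidases, against 927 and 529 of all 9276 tested genes. Below 0 on all 3 arrays were 59.1% of the testis genes, and 14 exceeded the blank level in wild type on all arrays. The 7 sperm leucyl aminopeptidases had a median of -1.11, with loopin-1 alone past the threshold. Of 20 gut enzymes the amylase genes Amy-d and Amy-p, near-identical copies that a cDNA probe may not tell apart, passed in limma and fell, with mean log2 ratios of -2.02 ± 0.15 and -1.90 ± 0.27 (SD, n = 3, limma adjusted p = 0.0287 and 0.0353). Amy-p was named because it passed. The median of the list was -1.03. The summed intensity of the testis list was 29069 to 33577 in wild type and 16761 to 19672 in the mutant, and that of the gut list 33402 to 52060 and 14037 to 25869. For the seminal fluid proteins it was 7926 to 24245 and 4063 to 14123, which overlap between arrays. That sum takes Acp36DE by clone GH13354, at 754.7 in wild type on array 1 and 13317.7 on array 2. The range of the sum thus depends on this probe. The intensities of the other Acp36DE probe, GH11288, did not overlap between genotypes. All 6 measured members and all 7 aminopeptidases exceeded the blank level in at least 1 channel. In the wild-type channel of array 2, the only one in which Acp26Aa did so, 80.25% of all probes exceeded that level. CG11598, Obp22a, Obp56i and Semp1 of the 22 other seminal genes, aly and janB of the testis list, and iotaTry and lambdaTry of the gut list exceeded it in none. The part of these tissues in the seminal fluid result was not tested.

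The array order was not the same in all of these lists. The seminal fluid proteins had medians of -1.04, -0.33 and -2.24 on arrays 1, 2 and 3, so the ratio on array 3 was the lowest by far. The gut enzymes had -1.19, -0.54 and -1.16, the testis genes -0.70, -0.09 and -0.47, and the aminopeptidases -1.26, -0.42 and -1.61. The 22 other seminal genes had -0.23, -0.15 and -0.32, and the 13 bright ones among them -0.71, -0.38 and -1.25. The aminopeptidases and the other seminal genes thus shared the members' order, lowest on array 3 and nearest to 0 on array 2. Photoreceptor genes had 0.32, -0.31 and 0.10 and neuron genes 0.09, -0.20 and 0.29. Array 2 gave the ratio nearest to 0 in the seminal, gut, testis and aminopeptidase lists and the lowest in the 2 head lists. The gap between the list medians of arrays 1 and 3 was larger for the seminal fluid proteins than for the other lists. It was not particular to the members, since single genes of the wider seminal list had a like gap. Spn38F stood at -1.19 on array 1 and -2.40 on array 3, Spn28F at -1.09 and -2.50, and Obp51a at -0.97 and -2.05. Obp56g differed little, at -1.29 and -1.42. With 1 array each, the gap between arrays 1 and 3 was not tested.

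**Figure D4:**
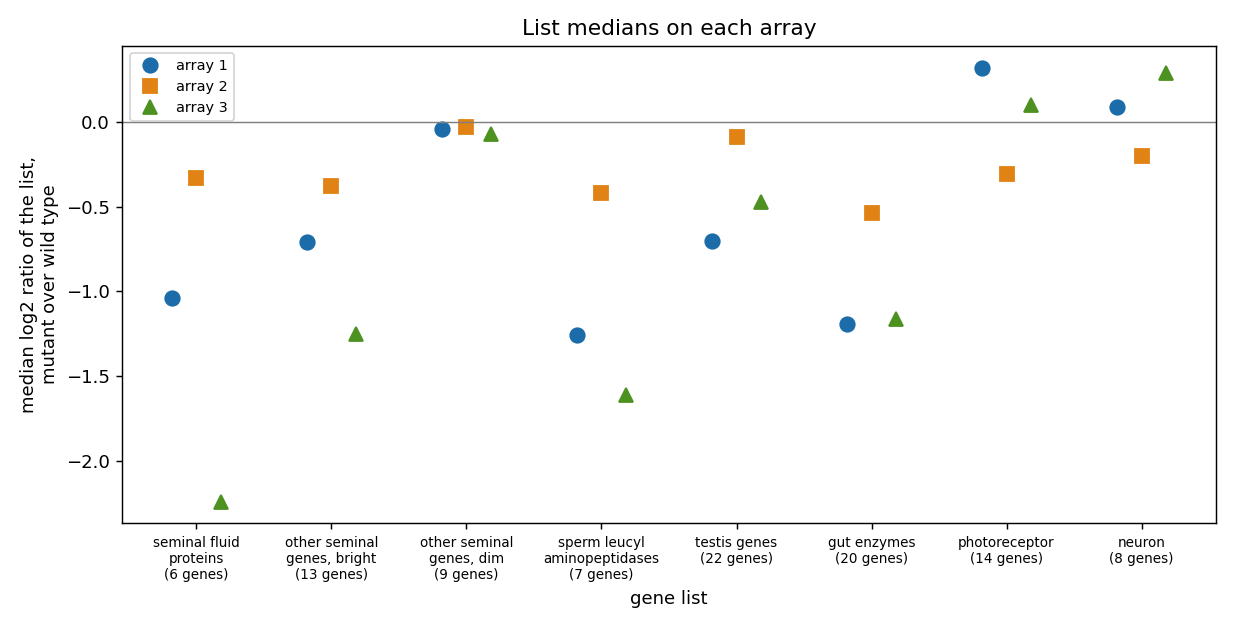
Median log2 ratio of mutant over wild type (y axis) of each gene list (x axis, with the number of genes measured), with 1 marker per array. The seminal fluid proteins range from -0.33 on array 2 to -2.24 on array 3, the gut enzymes from -0.54 to -1.19, and the photoreceptor and neuron lists lie on both sides of 0.

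Likeness to the members' median profile was measured by the Euclidean distance over the 3 log2 ratios. The nearest named probe outside the members was that of Spn28F, at a distance of 0.29. CG17472 followed at 0.41 (-0.76, -0.12 and -2.03), then Jon99Fi at 0.49 (-1.26, -0.52 and -1.84), CG31872 at 0.49 (-0.94, -0.49 and -1.79) and CG16826 at 0.50 (-1.45, -0.58 and -2.40). Jon99Fi encodes a gut serine protease, so the nearest profiles were not of seminal genes alone. With 3 arrays such a distance is a description of these arrays.

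**Figure D5:**
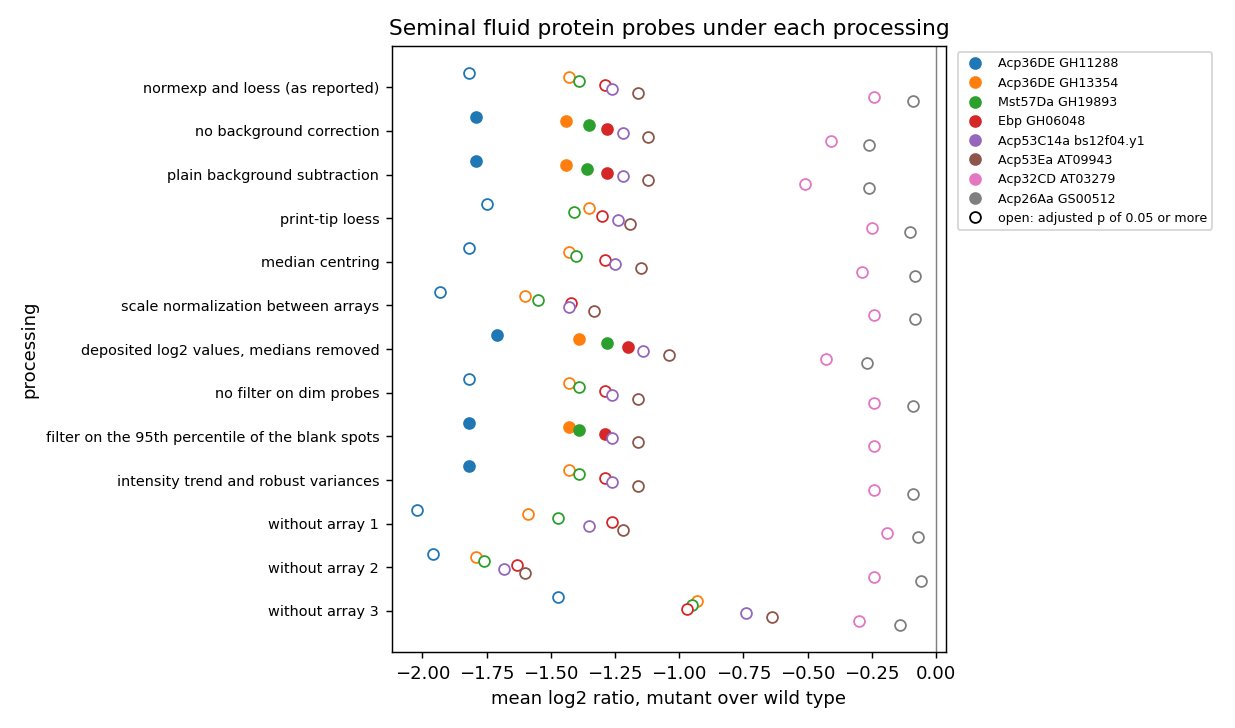
Mean ratio of each probe on the log2 scale, mutant over wild type (x axis), under each processing (y axis), filled where the limma adjusted p was under 0.05. Each probe lies below 0 in each setting in which it was tested. The filled points are those of Acp36DE, Mst57Da and Ebp under no background correction, plain subtraction, the deposited log2 values and the filter on the blank spots, and Acp36DE clone GH11288 also with an intensity trend.

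The calls of single probes differed with the treatment of the background and of dim probes. Acp36DE (both probes) and Mst57Da passed in limma without background correction, with adjusted p-values of 0.00495, 0.0324 and 0.0287, where 2.71% of tested probes passed in the lower direction, against 3 of 7 here. Their ratios there were -1.79, -1.44 and -1.35, within 0.04 of those above. The same 3 probes passed with plain subtraction (2.45% of tested probes lower), with the deposited log2 values (2.57%) and with the filter on the blank spots (4.47%, and 3 of the 6 members' probes left). With an intensity trend and robust variances, Acp36DE clone GH11288 alone passed (limma adjusted p = 0.00918), against 1.87% of tested probes. Acp53Ea and Acp53C14a passed under none of the 12 alternatives, with lowest adjusted p-values of 0.0861 and 0.0599 in limma.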

How the data were processed

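The deposited scanner tables give foreground and local background intensity per spot and channel on a linear scale, not normalized, per the file headers. The deposited log2 values equalled log2 of channel 2 over channel 1 foreground within 5.32e-05, uncentred, with medians of -0.0817, -0.200 and -0.0445. The image software is not given in the sources used here. Of 27648 spots per array, 23488 held 11744 probes in duplicate. Blank, failed and control spots had weight 0 in the normalization, and 22, 76 and 26 spots marked to be ignored were left out. Symbols came from CG numbers through RefSeq (Release 6 plus ISO1 MT), for 10613 probes. No build is named in the files, so no coordinates are given.

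The intensities were corrected by normexp with an offset of 50 and the ratios by loess within arrays, in limma 3.58.1 under R 4.3.3. The mean of both spots of a probe was used. Tested probes had at least 1 channel over local background plus 2 of its SDs on 2 or more arrays. limma tested the mean log2 ratio against 0, two-sided, with Benjamini-Hochberg adjustment at 0.05 over 11733 probes. On simulated arrays for this comparison (11744 probes, steps after background correction), limma called 89% of the 100 probes given a 2-fold change and 99% of the 100 given a 4-fold one. It also called 12 unchanged probes. The simulated noise was independent on each array, with a spread estimated over all probes. The bright members had SDs of 0.61 to 0.97 between arrays, so these shares do not give the power for them. On the real arrays 106 tested probes had a mean log2 ratio of -1 or lower, and 9 tested probes were called lower. Precision is limited by having 3 arrays. No label ties the RNA samples to separate cultures, so p-values cover only the spread between samples, which may be technical.

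The members and lists were chosen with earlier results of these data known. Genes were named by rule: the 10 members, kep1, the 4 other seminal genes and 2 genes per comparison list with the largest ratios of 1 sign (of which only some are printed), and the 5 nearest profiles. Lists take the brightest probe of each gene. The split by brightness was made after the values were seen. Alternatives in background, normalization, filter, variance model and arrays used are given in the closing section.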

Additional observations from a re-analysis of the deposited data

How the results depend on the processing

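Each array held 1 mutant and 1 wild-type RNA, so the test of the ratio within arrays already pairs them, and there is 1 group of arrays. All member probes kept their sign under all alternatives in which they were tested, and the filter on the blank spots left out Acp26Aa. The median of the members stayed between -1.64 and -0.69, the latter without array 3. limma called 434 probes without background correction, 390 with plain subtraction, 70 with median centring, 423 with the deposited log2 values, 367 with the filter on the blank spots and 292 with an intensity trend and robust variances, against 17 as reported. It called 0 with scale normalization (1829 at an unadjusted p under 0.05), and from 0 to 107 when 1 array was left out, where 0 came without array 1 (1329 unadjusted) or array 3 (1177 unadjusted) and 107 without array 2. Of the 7 member probes, 3 passed without background correction, with plain subtraction, with the deposited values and with the blank filter, and 1 with the intensity trend, against 0 as reported (6 at an unadjusted p under 0.05). Leaving out 1 array gave 0 (3 unadjusted without array 1, 5 without array 2 and 6 without array 3). The median of the other seminal genes was -0.34 without background correction, -0.36 with plain subtraction, -0.40 with the deposited values, -0.81 with the blank filter, which keeps 12 genes, and -0.41 to -0.22 when 1 array was left out. The testis median (-0.39) was -0.84 with the blank filter, -0.23 without array 1 and -0.59 without array 2. The female list (Yp1 to Yp3, bcd, osk, yl) lay at 0.00, at 0.09 without background correction and with plain subtraction, at 0.11 with the deposited values, and at -0.04 to 0.09 when 1 array was left out. Its median covers Yp3, a yolk protein gene, at 0.78, 2.39 and 0.64 (mean 1.27 ± 0.98, SD, n = 3, limma adjusted p = 0.244). It also covers osk and yl, which exceeded the blank level in no channel. Of the 6 female genes, 3 exceeded that level in every channel, in RNA labelled male. The blank filter, which keeps 3 genes of this list, gave a median of 0.07. The cause of these shifts was not tested. The blank filter left 6024 tested probes. Signal near the blank level limits Acp26Aa and Acp32CD.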
